A study of Homo sapiens with 12 samples.

Results

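The 10 genes described here encode the enzymes that build, desaturate and lengthen fatty acids: FASN, ACACA and ACACB for synthesis, SCD, FADS1 and FADS2 for desaturation, and ELOVL1, ELOVL5, ELOVL6 and ELOVL7 for elongation. They were chosen by name, with earlier results of these data known. Each was found as 1 of the 70116 gene rows of the deposited count table by its Ensembl identifier. RNA was measured in cultured MiaPaCa-2 cells, a line long used as a model of pancreatic cancer, as poly(A) RNA from 12 libraries. Each of 4 groups had 3 libraries, and cells had been transfected with a control siRNA (siControl) or with an siRNA against SLC25A1, ACLY or ACO1 (siSLC25A1, siACLY and siACO1). All groups carried an siRNA, none was untransfected, and the labels do not give the siRNA sequences, how many were used per target, the medium or the time of harvest.

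Fatty acid synthesis starts from cytosolic acetyl-CoA. The carrier SLC25A1 brings citrate out of mitochondria, and ATP citrate lyase (ACLY) splits it into acetyl-CoA and oxaloacetate, whereas ACO1, the cytosolic aconitase, turns citrate into isocitrate and can also bind iron-responsive elements in RNA. Acetyl-CoA carboxylase makes malonyl-CoA, FASN condenses it into palmitate, ELOVL enzymes lengthen the chain and desaturases insert double bonds. SREBF1 encodes a transcription factor of the sterol regulatory element-binding family that is known to drive most of these genes.

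FASN and SCD, which had the highest CPM of the set in siControl, were lower after knockdown of ACLY or ACO1, FASN at 72.3% and 71.7% of siControl and SCD at 64.2% and 76.0%. After knockdown of SLC25A1 SCD was at 79.9% of siControl, and FASN was at 91.1% without passing the test. FADS2 moved the other way and rose to 141% in siACLY and 153% in siACO1, while its neighbour FADS1 rose in siSLC25A1, to 113%, and did not pass the test in the other knockdowns. Among the elongases ELOVL1 rose in siACLY and siACO1, ELOVL5 fell in siACLY and rose in siACO1, and ELOVL7, a scarce transcript, rose in siACLY and fell in siACO1. Of these calls, those of FADS1, of ELOVL1 in siACLY, of ELOVL5 in both groups and of ELOVL7 in siACO1 were each lost when certain single libraries were left out. SCD was the only one of the 10 genes that passed the test in the same direction in all 3 knockdowns.

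Read totals ran from 24159424 to 43792811 counts per library, and the 3 targets were at 8.75% (SLC25A1), 7.24% (ACLY) and 3.72% (ACO1) of siControl in their own knockdowns. Levels are given as CPM, counts scaled to a common depth with TMM-adjusted library totals, as mean ± SD of 3 libraries. A gene was called changed at an adjusted p under 0.05 in edgeR's two-sided quasi-likelihood test over 16197 tested genes, and log2 fold changes carry their standard error (SE). The labels do not say that the libraries came from separate cultures, so the p-values measure the spread between these libraries, which may be technical. In bulk RNA, fewer cells of a kind and less RNA per cell cannot be told apart. Of the fixed line markers KRT8, KRT18, KRT19 and VIM were expressed and KRT7, EPCAM and CDH1 were under 1 CPM in every library. Markers of endothelium, adipocytes and hepatocytes summed to under 1 CPM in each library, and of the 5 blood and 5 fibroblast markers 4 each stayed under 1 CPM. The mean of KRT8 was 2278 CPM in siControl and 1279.7 CPM in siACO1, and that of VIM was 3561 CPM in siControl and 4558 CPM in siACLY. The fibroblast sum, nearly all of it COL1A2, ran from 875 to 895 CPM in siControl, 784 to 844 in siSLC25A1, 826 to 876 in siACLY and 1546 to 1592 in siACO1, and the blood sum from 1.2002 to 2.00, 1.93 to 2.62, 2.29 to 2.74 and 2.63 to 2.98 CPM. The part of these marker differences in the results below was not tested. siACO1 replicate 3 stood apart from its replicates, with a chi-square per degree of freedom of 11.9 to 12.6 against at most 5.88 for all other replicate pairs, and the siACO1 values against siControl are therefore also given without it. The 4 groups share 1 estimate of the spread, and leaving this library out also moved other comparisons. Against siControl, 3173 of 16197 genes were called in siSLC25A1 with it and 4131 of 16601 without it. In siACLY these were 5944 of 16197 and 6736 of 16601.

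Per length of their merged exons (RPKM, the scaled CPM per kilobase), SCD was the highest of the set in siControl at 139.7 ± 11.2, followed by FASN at 81.8 ± 5.07, ELOVL5 at 70.8 ± 1.70 and ELOVL1 at 48.0 ± 0.845. FADS1 (6.38 ± 0.270), FADS2 (2.35 ± 0.129) and ACACB (0.705 ± 0.0196) followed at clearly lower per-length levels. ACACA (0.236 ± 0.0207) and ELOVL7 (0.198 ± 0.0519) overlapped in their siControl libraries. The place of ACACA in this order is uncertain because its counts lie in a stretch of mostly near-empty genes, described with that gene. ELOVL6 was lowest at 0.0221 ± 0.00602. With the length of the longest transcript in place of all exons, FASN and ELOVL5 were at 89.4 and 87.6 RPKM in siControl and did not differ beyond their spread. In siACLY FASN was at 59.2 ± 3.53 RPKM and ELOVL5 at 65.4 ± 1.36, and in siACO1 at 58.7 ± 5.86 and 76.9 ± 1.46. With merged exons FASN was thus above ELOVL5 in siControl and below it in both knockdowns. With the longest transcript, where they were level in siControl, FASN was also below ELOVL5 in both (64.7 and 81.0 RPKM in siACLY, 64.1 and 95.2 in siACO1).

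**Figure D1:**
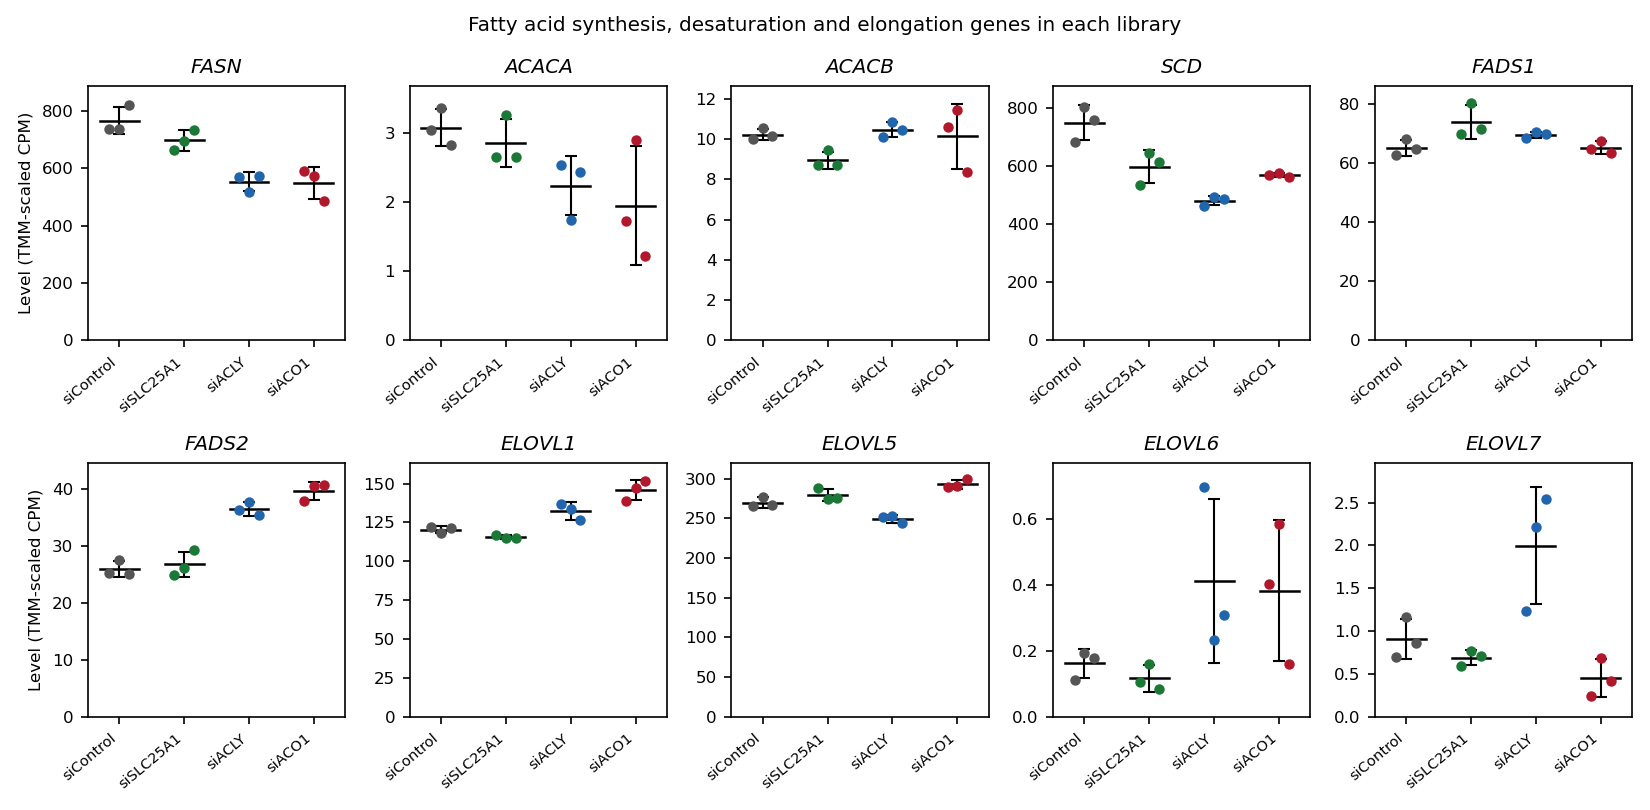
Level of each gene in every library, in TMM-scaled CPM on a linear axis starting at 0, for the 4 groups. Points are libraries, horizontal lines the mean and bars the SD of 3 libraries; FASN and SCD lie lower and FADS2 higher in siACLY and siACO1 than in siControl without overlap, and ELOVL6 and ELOVL7 are at a few CPM or less.

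Promoter sequence from RefSeq (GRCh38.p14) was available for 9 of the 10 genes, with 13 transcription starts in all. The 250 bases before each start were searched on both strands for the sterol regulatory element TCACNCCAC, the E-box CACGTG, the CCAAT box (CCAAT) and the GC box (GGGCGG). None of the 13 windows held the letters of the sterol regulatory element, which 0.883% of all 35116 windows hold, and 1 held an E-box, that of ELOVL5, against 6.34%. A CCAAT box was present in 6 of the 13 windows against 32.0% of all, and a GC box in 9 against 42.6%. A match is a description of the letters and not of a bound site, and the absence of a match says only that these letters are not in this window.

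The stretches before the first annotated exon are shown for SCD, the member called lower in every knockdown, for ELOVL1, which rose in siACLY and siACO1, and for ELOVL7, which moved in opposite directions in those 2 groups. They lie at chr10:100346983-100347123 (plus strand), chr1:43368075-43368261 (minus strand) and chr5:60844390-60844519 (minus strand) and are written 5′ to 3′ along the gene. Capitals mark CCAAT boxes and GC boxes (GGGCGG, or CCGCCC for the opposite strand).
SCD: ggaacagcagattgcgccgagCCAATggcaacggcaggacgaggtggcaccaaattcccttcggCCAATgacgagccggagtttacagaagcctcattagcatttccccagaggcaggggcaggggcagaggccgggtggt
ELOVL1: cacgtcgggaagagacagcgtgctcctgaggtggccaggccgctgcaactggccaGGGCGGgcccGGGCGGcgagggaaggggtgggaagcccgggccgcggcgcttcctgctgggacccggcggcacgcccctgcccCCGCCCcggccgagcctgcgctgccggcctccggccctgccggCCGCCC
ELOVL7: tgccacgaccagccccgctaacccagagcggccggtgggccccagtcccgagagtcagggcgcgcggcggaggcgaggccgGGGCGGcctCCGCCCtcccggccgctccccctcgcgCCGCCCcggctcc
The 141 bases shown for SCD hold 2 CCAAT boxes, the 187 bases of ELOVL1 4 GC boxes and the 130 bases of ELOVL7 3 GC boxes. What a stretch holds depends on where it ends: the full 250-base window of SCD also has 2 GC boxes, and that of ELOVL1 a CCAAT box whose letters are cut by the end of the stretch. The GC content of the 3 stretches is 61.0%, 80.7% and 82.3%.

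FASN (ENSG00000169710.9; GRCh38 chromosome 17, 82078333 to 82098332, minus strand) encodes fatty acid synthase, the multifunctional enzyme that makes palmitate from malonyl-CoA. Its level was 739, 738 and 821 CPM in the siControl libraries, 663, 695 and 734 CPM in siSLC25A1, 572, 516 and 575 CPM in siACLY, and 589, 572 and 487 CPM in siACO1. Every siACLY and siACO1 library was thus below every siControl and siSLC25A1 library, and siSLC25A1 lay narrowly below siControl. FASN fell by 0.47 on the log2 scale in siACLY (SE 0.07, adjusted p 5.37e-05) and by 0.48 in siACO1 (SE 0.07, adjusted p 3.89e-05), from 766 ± 47.4 CPM to 554 ± 33.0 and 549 ± 54.8 CPM. Without siACO1 replicate 3, the lowest library, the change in siACO1 was -0.40 (adjusted p 9.52e-06). In siSLC25A1, at 698 ± 35.6 CPM, the log2 change of -0.13 (SE 0.07, 95% interval -0.28 to 0.01) was not called (adjusted p 0.190). It was called without siACO1 replicate 3 (adjusted p 0.0466), without a filter on low counts (0.0120) and in a fit of the 2 groups alone (0.0167), with log2 changes between -0.15 and -0.13. Between the knockdowns, FASN was higher in siSLC25A1 than in siACLY by 0.33 (adjusted p 0.00127) and than in siACO1 by 0.34 (adjusted p 6.83e-04), whereas siACLY and siACO1 differed by 0.01 (95% interval -0.13 to 0.16, adjusted p 0.904).

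ACACB (ENSG00000076555.16; chromosome 12, 109116595 to 109268226, plus strand) encodes the acetyl-CoA carboxylase of the mitochondrial outer membrane, whose malonyl-CoA restrains fatty acid import for oxidation. Its level was 9.99, 10.5 and 10.2 CPM in siControl, 8.72, 9.46 and 8.70 CPM in siSLC25A1, 10.1, 10.9 and 10.4 CPM in siACLY, and 10.6, 11.5 and 8.35 CPM in siACO1. Only siSLC25A1 lay wholly below siControl, and siACO1 replicate 3 was the lowest of all libraries. The log2 changes against siControl were -0.19 (95% interval -0.40 to 0.02, adjusted p 0.209) in siSLC25A1, 0.03 (-0.18 to 0.24, adjusted p 0.844) in siACLY and -0.01 (-0.22 to 0.19, adjusted p 0.933) in siACO1. ACACB was called in none of the 6 comparisons. Without siACO1 replicate 3 its difference between siSLC25A1 and siACO1, -0.18 with all libraries (adjusted p 0.183), was -0.30 and passed the test (adjusted p 0.0172).

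ACACA (ENSG00000278540.5; chromosome 17, 37084988 to 37406818, minus strand) encodes the cytosolic acetyl-CoA carboxylase, the committed step of fatty acid synthesis, but its counts may not reflect its transcript level. It had between 38 and 121 counts per library and lies in a stretch of 58 protein-coding genes over 3128 kb, from TAF15 to C17orf98, in which 48 genes (82.8%) had a mean under 10 counts, against 41.1% of all 19849 protein-coding genes. Some genes needed in every growing cell were near 0 there, with 0 to 2 counts per library for the proteasome subunit PSMB3 and 0 to 5 for the mitochondrial ribosomal protein MRPL45. RPL23 just outside the stretch had a mean of 23933 and AP2B1 on its other side 24682. The stretch was not empty throughout. RASL10B, DDX52 and SOCS7 within it had means of 1792, 424 and 339 counts, while 55 of the 58 genes had a mean under 100. The limits of the stretch and the other genes named from it and its edges were chosen after their values were seen, and the cause was not tested. With that limit, the counts of ACACA were 109, 121 and 79 in siControl, 76, 81 and 64 in siSLC25A1, 113, 45 and 63 in siACLY, and 43, 89 and 38 in siACO1. The log2 changes were -0.11 (adjusted p 0.771), -0.44 (0.107) and -0.66 (0.0195), and the call in siACO1 was lost without siACO1 replicate 1 (-0.59, adjusted p 0.0685) or 3 (-0.40, 0.144) or siControl replicate 2 (-0.59, 0.0788). In siACLY ACACA was called in a fit of those 2 groups alone (-0.44, adjusted p 0.0353) and, with a p just under the threshold, without siACO1 replicate 3 (-0.45). Counts over the 10 genes below are therefore also given without ACACA and without ELOVL6.

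**Figure D2:**
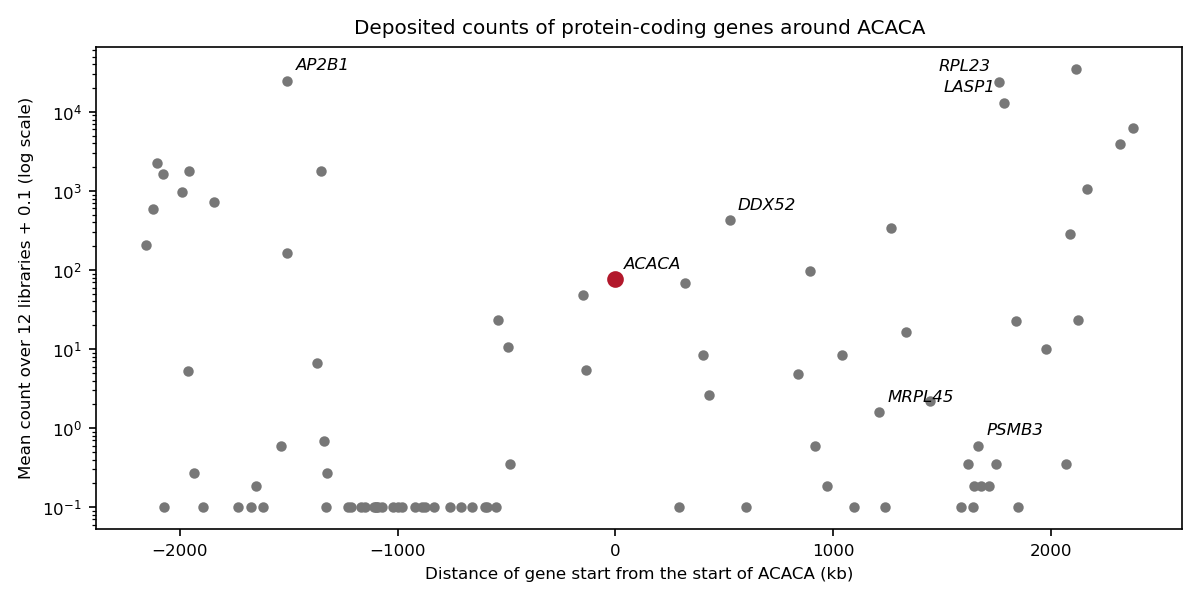
Mean deposited count over the 12 libraries, plus 0.1 and on a log axis, of each protein-coding gene against the distance of its start from the start of ACACA in kb. Each point is a gene; ACACA is red, and many genes on either side sit near 0, while RPL23, LASP1 and AP2B1 near the edges had means of 23933, 12995 and 24682 counts.

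SCD (ENSG00000099194.6; chromosome 10, 100347124 to 100364834, plus strand) encodes stearoyl-CoA desaturase, which makes oleate and palmitoleate from saturated chains. Its level was 684, 803 and 760 CPM in siControl, 535, 644 and 616 CPM in siSLC25A1, 462, 493 and 487 CPM in siACLY, and 571, 577 and 562 CPM in siACO1. Each knockdown library was below each siControl library, with siACLY below all others. SCD fell by 0.32 on the log2 scale in siSLC25A1 (SE 0.06, adjusted p 6.67e-04), by 0.64 in siACLY (SE 0.06, adjusted p 1.17e-07) and by 0.40 in siACO1 (SE 0.06, adjusted p 3.74e-05), from 749 ± 60.2 CPM to 598 ± 56.9, 481 ± 16.6 and 569.8 ± 7.92 CPM. Without siACO1 replicate 3 the change in siACO1 was -0.39 (adjusted p 0.00824). These comparisons share the siControl libraries. SCD was lower in siACLY than in siACO1 by 0.24 (SE 0.06, adjusted p 0.00296) and higher in siSLC25A1 than in siACLY by 0.32 (adjusted p 4.71e-04). The difference between siSLC25A1 and siACO1, 0.07 (95% interval -0.06 to 0.20, adjusted p 0.379), was not called, and without siSLC25A1 replicate 1 it was 0.15 and called (adjusted p 0.0217). Of the 31-base stretches of SCD transcripts, 12.6% also occur in transcripts of other genes, so some of its reads could have been assigned elsewhere by rules that are not given.

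FADS2 (ENSG00000134824.14; chromosome 11, 61792980 to 61867354, plus strand) and FADS1 (ENSG00000149485.19; chromosome 11, 61799625 to 61829318, minus strand) encode the desaturases that act in turn on polyunsaturated fatty acids, FADS2 first. The genes overlap on opposite strands, with 4.89% and 5.57% of their exon bases lying over another gene. These bases include overlap on the same strand, of FADS2 with FEN1 and of FADS1 with MIR1908. Whether counting used the strand is not given in the sources used here. FADS2 was at 25.2, 27.5 and 24.9 CPM in siControl, 24.9, 26.1 and 29.2 CPM in siSLC25A1, 36.3, 37.7 and 35.4 CPM in siACLY, and 37.8, 40.5 and 40.6 CPM in siACO1. All siACLY and siACO1 libraries were above all siControl and siSLC25A1 libraries, and the latter 2 groups overlapped. FADS2 rose by 0.49 in siACLY (SE 0.06, adjusted p 4.14e-07) and by 0.61 in siACO1 (SE 0.06, adjusted p 6.76e-09), from 25.9 ± 1.42 CPM to 36.5 ± 1.17 and 39.6 ± 1.60 CPM, and by 0.59 in siACO1 without replicate 3 (adjusted p 2.49e-09). In siSLC25A1 its log2 change was 0.04 (95% interval -0.09 to 0.18, adjusted p 0.727), and it was lower there than in siACLY by 0.45 (adjusted p 2.80e-06) and than in siACO1 by 0.57 (adjusted p 2.40e-08). siACLY and siACO1 differed by -0.12 (95% interval -0.25 to 0.00, adjusted p 0.116), which was not called although their libraries did not overlap.

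FADS1 was at 62.9, 68.3 and 64.7 CPM in siControl, 69.9, 80.4 and 71.5 CPM in siSLC25A1, 68.6, 70.7 and 69.9 CPM in siACLY, and 64.8, 67.7 and 63.5 CPM in siACO1. siSLC25A1 and siACLY lay above siControl, the latter by less than 1 CPM at the nearest libraries, and siACO1 overlapped it. FADS1 rose by 0.18 in siSLC25A1 (SE 0.05, adjusted p 0.0143), from 65.3 ± 2.76 to 74.0 ± 5.68 CPM. That call rested on single libraries: it was lost without siSLC25A1 replicate 2, the highest (0.11, adjusted p 0.164), and without siControl replicate 1 (0.15, 0.0940) or 3 (0.17, 0.0560). In siACLY the log2 change was 0.09 (95% interval -0.01 to 0.20, adjusted p 0.166) and in siACO1 0.00 (-0.11 to 0.11, adjusted p 0.995), where FADS2 rose. Scaling by library totals alone gave 0.14 for siACLY and a call (adjusted p 0.0449). Between knockdowns FADS1 was higher in siSLC25A1 than in siACO1 by 0.18 (adjusted p 0.00705), or by 0.12 without siSLC25A1 replicate 2 (adjusted p 0.0909).

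ELOVL1 (ENSG00000066322.15; chromosome 1, 43363397 to 43368074, minus strand) encodes the elongase of saturated and monounsaturated very long chains. Its level was 122, 118 and 121 CPM in siControl, 117, 115 and 115 CPM in siSLC25A1, 137, 134 and 126 CPM in siACLY, and 139, 147 and 152 CPM in siACO1. The 4 groups did not overlap and lay in the order siSLC25A1, siControl, siACLY, siACO1, although the difference between siSLC25A1 and siControl was not called (-0.06, 95% interval -0.15 to 0.03, adjusted p 0.403). ELOVL1 rose by 0.28 in siACO1 (SE 0.04, adjusted p 7.45e-06), to 146 ± 6.60 from 120.4 ± 2.12 CPM, and by 0.25 without siACO1 replicate 3 (adjusted p 7.14e-06). It rose by 0.14 in siACLY (SE 0.04, adjusted p 0.0130), to 132 ± 5.52 CPM, and that call was lost without siControl replicate 2 (0.12, adjusted p 0.0692), siACLY replicate 1 (0.10, 0.113) or siACLY replicate 2 (0.12, 0.0606). siACLY was below siACO1 by 0.14 (adjusted p 0.0100), or by 0.11 without siACLY replicate 3, which was not called (adjusted p 0.0780). siSLC25A1 was below siACLY by 0.19 (adjusted p 8.27e-04) and below siACO1 by 0.33 (adjusted p 3.24e-07).

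ELOVL5 (ENSG00000012660.14; chromosome 6, 53267398 to 53349179, minus strand) encodes the elongase of polyunsaturated chains, which works between the FADS2 and FADS1 steps. It was at 266, 277 and 267 CPM in siControl, 288, 274 and 276 CPM in siSLC25A1, 251, 253 and 244 CPM in siACLY, and 289.6, 290.3 and 299.6 CPM in siACO1. siACLY was wholly below and siACO1 wholly above siControl, which siSLC25A1 overlapped. ELOVL5 fell by 0.11 in siACLY (SE 0.04, adjusted p 0.0205), from 270.0 ± 6.48 to 249 ± 5.17 CPM, and rose by 0.12 in siACO1 (SE 0.04, adjusted p 0.0152), to 293 ± 5.58 CPM. These changes, to 92.4% and 109% of siControl, depended on single libraries. The fall in siACLY was not called without siControl replicate 2 (-0.10, adjusted p 0.101) or siACLY replicate 3 (-0.10, 0.0840), nor with library totals (-0.07, 0.145) or without a filter (-0.12, 0.0545). The rise in siACO1 was not called without siControl replicate 1 (0.11, adjusted p 0.0776) or 3 (0.11, 0.0813) or without a filter (0.12, 0.0684), and was called without siACO1 replicate 3 (0.10, adjusted p 0.0261). The direct difference between siACLY and siACO1 was larger, -0.23 (SE 0.04, adjusted p 1.28e-05), and siSLC25A1 was above siACLY by 0.16 (adjusted p 0.00136).

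ELOVL7 (ENSG00000164181.14; chromosome 5, 60751791 to 60844389, minus strand), an elongase of saturated very long chains, was scarce but had the widest spread of group means of the 10 genes. Its counts were 25, 42 and 24 in siControl, 17, 19 and 17 in siSLC25A1, 55, 57 and 66 in siACLY, and 6, 21 and 13 in siACO1. In CPM these were 0.698, 1.16 and 0.858 in siControl, 1.24, 2.21 and 2.54 in siACLY, and 0.241, 0.683 and 0.417 in siACO1, so that siACLY lay above and siACO1 below siControl without overlap. ELOVL7 rose by 1.09 in siACLY (SE 0.30, adjusted p 0.00435), from 0.907 ± 0.238 to 2.00 ± 0.680 CPM, and siACLY was above siACO1 by 2.08 on the log2 scale (SE 0.34, adjusted p 9.43e-06), with siSLC25A1 at 34.4% of siACLY (adjusted p 5.16e-04). It fell by 0.98 in siACO1 (SE 0.36, adjusted p 0.0337), to 0.447 ± 0.222 CPM. This fall was not called without siACO1 replicate 1 (-0.73, adjusted p 0.153) or 3 (-0.92, 0.0732) or siControl replicate 2 (-0.75, 0.174) or 3 (-1.02, 0.0527). In siSLC25A1 the log2 change was -0.41 (95% interval -1.12 to 0.30, adjusted p 0.462).

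ELOVL6 (ENSG00000170522.10; chromosome 4, 110045846 to 110199199, minus strand), which extends palmitate to stearate, was close to the limit of detection. Its counts were 4, 7 and 5 in siControl, 3, 4 and 2 in siSLC25A1, 31, 6 and 8 in siACLY, and 10, 18 and 5 in siACO1. It reached 10 counts only in siACLY replicate 1 and siACO1 replicates 1 and 2, and passed the filter on low counts through those libraries, so its calls describe those libraries. The log2 change was 1.44 in siACLY (SE 0.54, adjusted p 0.0361) and 1.23 in siACO1 (SE 0.56, adjusted p 0.0881). Without siACLY replicate 1 the former was 0.73 (adjusted p 0.443), and it was also not called without siControl replicate 1 (1.22, adjusted p 0.144), 2 (1.60, 0.0676) or 3 (adjusted p 0.0749), without a filter (1.42, 0.0624) or with DESeq2 (1.40, 0.0858). Without siACO1 replicate 3 the change in siACO1 was 1.61 and called (adjusted p 0.0251). ELOVL6 was lower in siSLC25A1 than in siACLY by 1.90 (adjusted p 0.0160) and than in siACO1 by 1.68 (adjusted p 0.0326). Neither call was kept without siSLC25A1 replicate 1 (-1.81, adjusted p 0.0625, and -1.61, 0.0950) or 3 (-1.72, 0.0641, and -1.51, 0.101). The difference from siACLY was also lost without siACLY replicate 1 (-1.19, 0.244), and that from siACO1 without siACO1 replicate 1 (-1.65, 0.0646) or 2 (-1.20, 0.207) or with DESeq2 (-1.71, 0.0510).

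Against siControl, 2 of the 10 genes were called in siSLC25A1, FADS1 higher and SCD lower, where 19.6% of all tested genes were called, 10.3% higher and 9.27% lower. In siACLY 7 were called, with FADS2, ELOVL1, ELOVL6 and ELOVL7 higher and FASN, SCD and ELOVL5 lower, where 36.7% of all genes were called, 18.4% higher and 18.3% lower. ELOVL6 was tested only because of libraries where it was high, and in a fit of siACLY and siControl alone it did not pass the filter. In siACO1 7 were called as well, with FADS2, ELOVL1 and ELOVL5 higher and FASN, ACACA, SCD and ELOVL7 lower, where 37.1% of all genes were called, 17.8% higher and 19.3% lower. Of the 8 genes other than ACACA and ELOVL6, 2, 6 and 6 were called in siSLC25A1, siACLY and siACO1. Without siACO1 replicate 3, 6 of the 10 genes were called in siACO1, 4 higher and 2 lower, as ELOVL6 was gained and ELOVL7 and ACACA were lost, and 5 of the 8. In that fit 6195 of all 16601 tested genes were called in siACO1, 46.5% of them higher. The share of the 10 genes called in siSLC25A1 is near its background, and in the other groups the directions were mixed. The median log2 change of the 10 genes was -0.12, 0.06 and -0.01 in the order siSLC25A1, siACLY and siACO1, against 0.00, 0.01 and 0.01 over all genes. Their median absolute change was 0.16, 0.45 and 0.44, against 0.15, 0.20 and 0.21 over all genes. Both sets of medians include ACACA and ELOVL6 and were not taken without them. In the same order the log2 changes were -0.11, -0.44 and -0.66 for ACACA and -0.46, 1.44 and 1.23 for ELOVL6. The groups did not overlap for 5, 9 and 6 of the 10 genes, where 37.1%, 50.5% and 46.3% of all genes did not overlap, and for 5, 7 and 6 of the 8 genes.

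**Figure D3:**
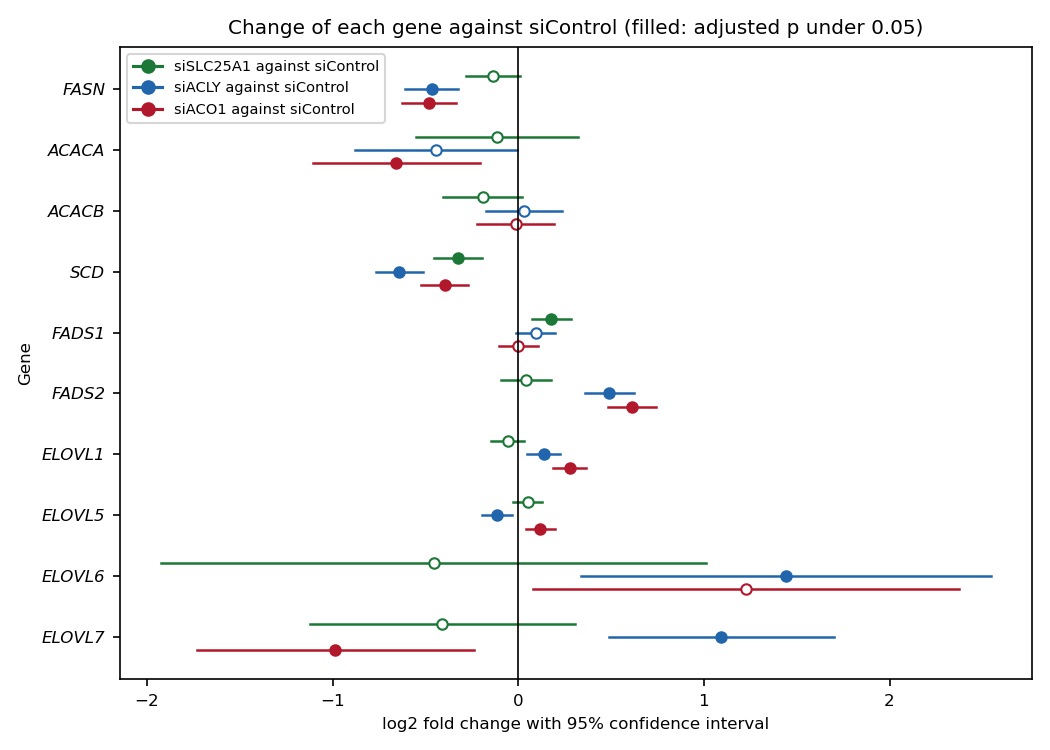
Log2 fold change against siControl of each of the 10 genes, with 95% confidence intervals, for siSLC25A1 (green), siACLY (blue) and siACO1 (red). Filled points have an adjusted p under 0.05; SCD lies below 0 in all 3 comparisons, FADS2 at 0.49 and 0.61 in siACLY and siACO1, and the intervals of ELOVL6 and ELOVL7 are the widest.

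Compared with each other, siSLC25A1 and siACLY differed in 7 of the 10 genes, with FASN, SCD and ELOVL5 higher and FADS2, ELOVL1, ELOVL6 and ELOVL7 lower in siSLC25A1, where 33.8% of all genes were called, 17.5% higher and 16.3% lower. siSLC25A1 and siACO1 differed in 5, with FASN and FADS1 higher and FADS2, ELOVL1 and ELOVL6 lower in siSLC25A1, where 42.1% were called, 21.8% higher and 20.3% lower. siACLY and siACO1 differed in 4, with ELOVL7 higher and SCD, ELOVL1 and ELOVL5 lower in siACLY, where again 42.1% were called, 21.4% higher and 20.7% lower. The groups did not overlap for 9, 5 and 6 of the 10 genes in these comparisons, against 46.5%, 48.0% and 49.0% of all genes. Without ACACA and ELOVL6, 6, 4 and 4 of 8 genes were called and 7, 5 and 6 did not overlap.

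The other genes of the pathway came from lists of 54 genes in 7 groups, of which 48 were tested. The lists were chosen with earlier results of these data known. In siSLC25A1 15 of the 48 were called, 3 higher and 12 lower, in siACLY 17, 7 higher and 10 lower, and in siACO1 28, 11 higher and 17 lower. Of all tested genes 19.6%, 36.7% and 37.1% were called in that order, 10.3%, 18.4% and 17.8% higher and 9.27%, 18.3% and 19.3% lower. In the transcriptional control list of 12 genes, 5, 6 and 7 were called in the same order, with 1, 3 and 4 higher. In the list of 5 genes that supply acetyl-CoA and NADPH these were 5, 1 and 1, with 1, 1 and 0 higher. For the carboxylase and synthase regulators and cofactor enzymes 1, 4 and 5 of 8 tested genes were called. For the rest of the elongation cycle 1, 1 and 4 of 5 were called, and for other desaturases and electron donors 1, 2 and 4 of 6. Mitochondrial fatty acid synthesis had 0, 1 and 2 of 6, and use of the fatty acids made 2, 2 and 5 of 6.

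SREBF1, whose product activates lipogenic genes, fell in each knockdown. Its level was 218, 243 and 239 CPM in siControl, 175, 198 and 188 CPM in siSLC25A1, 126, 133 and 127 CPM in siACLY, and 145, 143 and 137 CPM in siACO1. Each knockdown lay below siControl without overlap, and siACLY below siACO1. The log2 changes were -0.32 (SE 0.05, adjusted p 8.18e-06) in siSLC25A1, -0.86 (SE 0.05, adjusted p 1.90e-14) in siACLY and -0.72 (SE 0.05, adjusted p 7.63e-13) in siACO1. For SCD the corresponding log2 changes were -0.32, -0.64 and -0.40 and for FASN -0.13, -0.47 and -0.48, while FADS2 was at 0.04, 0.49 and 0.61. These values share their control libraries and are set side by side as a description. RXRA, a partner of the liver X receptors, also fell in each, by 0.27, 0.64 and 0.35 (adjusted p 7.97e-05, 7.85e-12 and 4.79e-07).

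SREBF2, the relative of SREBF1 that mainly drives cholesterol synthesis, had 123 ± 1.65 CPM in siControl, 105 ± 2.60 in siSLC25A1, 86.0 ± 3.97 in siACLY and 125 ± 7.49 in siACO1. It fell by 0.23 in siSLC25A1 (adjusted p 4.44e-04) and by 0.52 in siACLY (adjusted p 5.62e-10), and its change in siACO1 was 0.02 (95% interval -0.08 to 0.11, adjusted p 0.822). INSIG1, which holds the SREBF products in the endoplasmic reticulum, rose from 35.7 ± 3.59 CPM to 48.4 ± 0.548 in siACLY (0.44, adjusted p 6.15e-06) and 51.3 ± 1.78 in siACO1 (0.52, adjusted p 3.47e-07). In siSLC25A1 INSIG1 changed by -0.11 (95% interval -0.25 to 0.04, adjusted p 0.312). MLXIPL, a carbohydrate-responsive factor for lipogenic genes, was at 11.0 ± 0.289 CPM in siControl and fell by 0.69 in siSLC25A1 (adjusted p 4.30e-05) and by 1.04 in siACO1 (adjusted p 2.26e-08), with 0.08 in siACLY (95% interval -0.13 to 0.29, adjusted p 0.598).

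MID1IP1, which promotes assembly of active acetyl-CoA carboxylase, was at 17.6 ± 1.14 CPM in siControl and fell by 0.55 in siACLY (adjusted p 8.54e-06) and by 0.70 in siACO1 (adjusted p 2.40e-07). In siSLC25A1 it changed by -0.10 (95% interval -0.27 to 0.08, adjusted p 0.474). PRKAA1, a catalytic subunit of the kinase AMPK that inhibits acetyl-CoA carboxylase, rose by 0.26 in siACLY and 0.37 in siACO1 (adjusted p 2.25e-05 and 5.54e-08) and was named after its values were seen. Its rise of 0.14 in siSLC25A1 (adjusted p 0.0247) was not called without siControl replicate 1, 2 or 3 or siSLC25A1 replicate 1 or 2 (0.12 to 0.14, adjusted p 0.0589 to 0.101) or without a filter (0.13, 0.130). PRKAA1 comes from the list of carboxylase and synthase regulators and cofactor enzymes, with 8 tested genes. Of these, 1 was called in siSLC25A1 (higher), 4 in siACLY (2 higher and 2 lower) and 5 in siACO1 (1 higher and 4 lower). PRKAA1 was the only gene of that list called higher in siACO1. LPCAT3, which loads polyunsaturated chains into phospholipids, fell by 0.52, 0.72 and 0.34 (adjusted p 1.75e-05, 3.55e-08 and 8.22e-04), but 65.6% of its exon bases overlap EMG1, so its counts are uncertain. Without siACO1 replicate 3 the log2 changes in siACO1 were -0.70 for SREBF1, -0.37 for RXRA, 0.49 for INSIG1, -1.10 for MLXIPL, -0.79 for MID1IP1, 0.38 for PRKAA1 and -0.32 for LPCAT3, all still called, and 0.06 for SREBF2 (adjusted p 0.328).

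**Figure D4:**
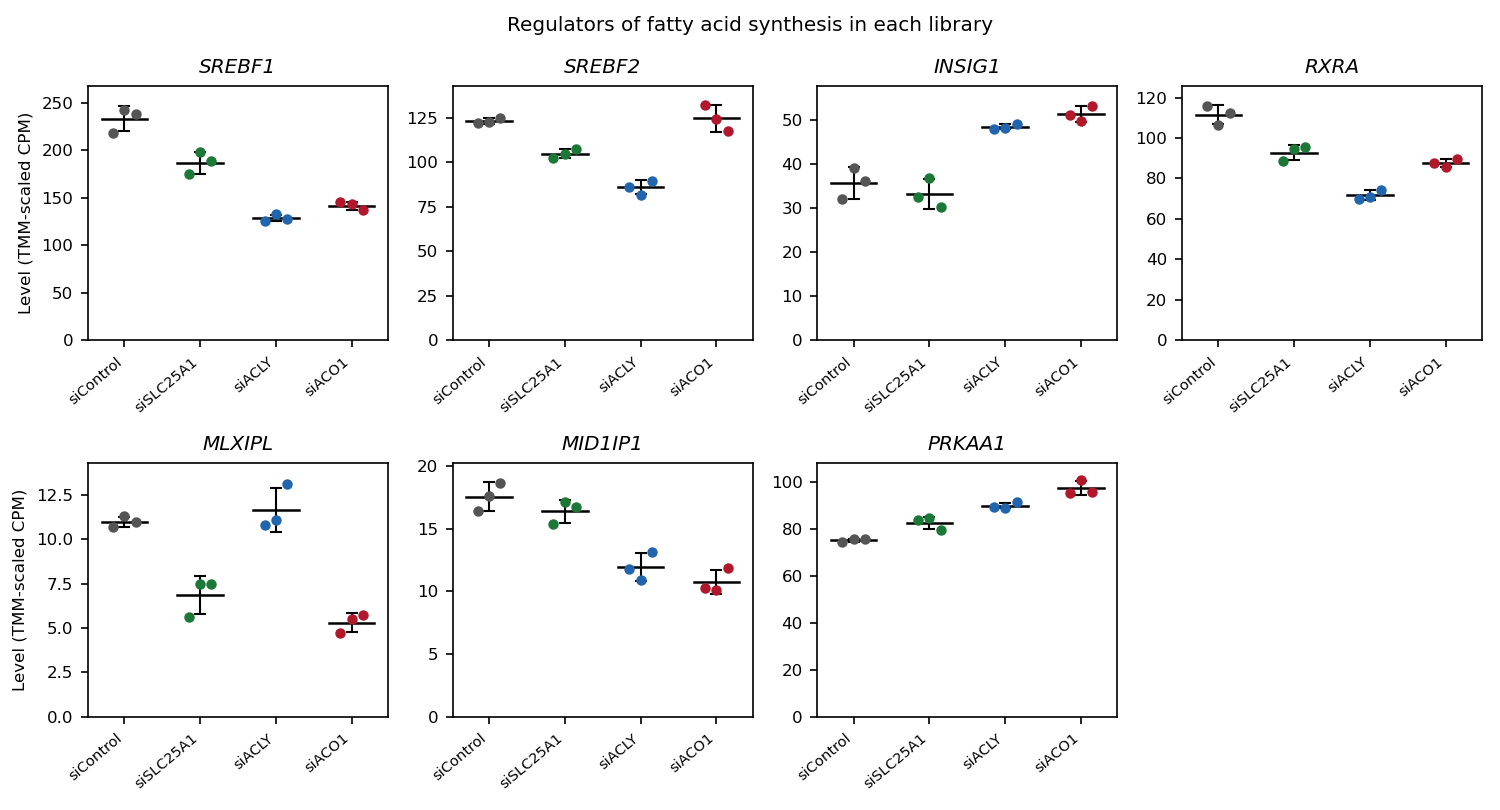
Level of 7 regulators of fatty acid synthesis in every library, in TMM-scaled CPM on linear axes starting at 0. Points are libraries, lines the mean and bars the SD of 3 libraries; SREBF1 and RXRA lie below siControl in each knockdown, INSIG1 is higher in siACLY and siACO1, and MLXIPL is lower in siSLC25A1 and siACO1.

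The genes whose profile was nearest to the 2 members with the widest range of group means were found by the root mean square (rms) difference of centred log2 CPM over the 12 libraries. For ELOVL7 the nearest was PARM1, at 0.337, with 3.69 ± 0.769 CPM in siControl, 3.12 ± 0.333 in siSLC25A1, 9.58 ± 1.27 in siACLY and 2.10 ± 0.268 in siACO1. ELOVL7 itself was at 0.907, 0.687, 2.00 and 0.447 CPM in that order of groups. The next were ZSWIM5, at an rms difference of 0.366, and ENSG00000232126.8, at 0.384. For ELOVL6 the nearest were ENSG00000287815 at 0.326, LINC01460 at 0.327 and YPEL4 at 0.361, all of them under 2 CPM in every group mean. These 6 genes were picked for their likeness and carry no test.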

How the data were processed

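Poly(A) RNA of 12 MiaPaCa-2 libraries was analysed, grouped by the titles given to each sample. The authors deposited 1 table of raw read counts per Ensembl gene, per the file headers and the values, which are whole and differ in total between libraries. Per the submitters' processing notes, STAR 2.7.0e, Trim Galore, FastQC, CASAVA and DESeq2 were used with the builds GRCh38 and GRCm39. The notes give no role for each, and the counting tool, annotation release and use of strand are not given in the sources used here. All 12 columns belonged to a sample. Symbols matched 62700 of the 70116 identifiers, and the others, which have no symbol, stayed in totals and tests.

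From these counts, edgeR 4.0.16 (R 4.3.3) was fitted to all 12 libraries with 4 groups and no block, leaving 8 residual degrees of freedom. It used filterByExpr, TMM scaling and the robust quasi-likelihood test. P-values were adjusted by Benjamini-Hochberg over the 16197 genes tested in each comparison. The common biological coefficient of variation was 4.89%. RPKM used merged exon lengths of GENCODE release 29 (GRCh38), from which all gene positions come. Counting error is smallest for the abundant members (SCD, at least 12643 counts) and largest for ELOVL6 (2 to 31 counts).

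The 10 members and the pathway and marker lists were chosen with earlier results of these data known. The text names the members, the targets, SREBF1, SREBF2, INSIG1 and MID1IP1, the 4 called genes of the other lists with the largest change and at least 5 CPM in each comparison with siControl, and the 3 nearest profiles of 2 members. Any other gene was chosen after its values were seen. For 1 gene that the rule picks, and 1 marker, values are not reported here. The fit was tested on simulated counts with known changes in siACLY against siControl. It called 79.6% of 98 genes with a log2 change of 1 and 61.6% of 99 genes with one of 0.5. Of 15690 unchanged genes it called 6. Far fewer genes changed in the simulation than the 36.7% called in siACLY against siControl. Its counts were also drawn independently, with the spread estimated from these libraries. These rates therefore do not give the share of true changes found or of false calls in the real comparisons. A gene that was not called may still have changed. The settings varied were library totals or median-of-ratios factors for scaling, DESeq2 1.42.0, no filter, at least 10 counts in every library, only the 2 groups compared, the replicate number as a block, the longest transcript as length and each library left out. Counts of members without ACACA and without ELOVL6 were added after seeing the data.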

Additional observations from a re-analysis of the deposited data

How the results depend on the processing

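Over the alternatives that were run, 2376 of 2491 values of single genes kept their direction and side of the threshold, 66 were no longer called, 22 became called and 27 changed sign, all of them of changes that were not called. The 2491 values include the targets in their own knockdowns and fits that left out a library of neither group compared. Their share therefore does not measure how stable a single call is. In siACLY against siControl the call of SCD was kept in 19 of 19 alternatives and that of ELOVL6 in 11 of 17. The number of members called, 2 in siSLC25A1 and 7 in siACLY against siControl, ranged from 1 to 3 and from 4 to 8 when 1 library was left out; it was 1 without siControl replicate 1 or 3 or siSLC25A1 replicate 2 (FADS1 lost) and 4 without siControl replicate 2. Of the 8 genes other than ACACA and ELOVL6 these ranges were 1 to 3 and 4 to 6. The calls over all genes moved in the same fits. They ran from 2319 of 16628 to 4131 of 16601 tested genes in siSLC25A1. In siACLY they ran from 5002 of 16622 to 6736 of 16601. The sign changes outside left-out libraries were those of FADS1 in siACO1 (-0.0025 with median-of-ratios size factors and with DESeq2, -0.0029 without a filter) and, with library totals, SLC25A1 in siACLY (0.015) and ACACB in siACO1 (0.036). With 1 library left out, log2 changes against siControl that changed sign ran from -0.029 to 0.033 (FADS1, siACO1), -0.12 to 0.11 (ACACB, siACO1), -0.0012 to 0.052 (ACACB, siACLY), -0.026 to 0.091 (FADS2, siSLC25A1), -0.013 to 0.13 (MLXIPL, siACLY) and -0.030 to 0.055 (SREBF2, siACO1). Those of siACLY against siACO1 ran from -0.087 to 0.15 (ACACB), -0.49 to 0.69 (ELOVL6), -0.070 to 0.062 (FASN) and -0.052 to 0.63 (ACACA). The causes were not tested. Library totals moved the share of called genes that were higher from 50.1% to 61.0% in siACLY, from 47.9% to 59.5% in siACO1, from 51.8% to 41.0% in siSLC25A1 against siACLY and from 51.8% to 42.2% in siSLC25A1 against siACO1. Same-numbered replicates did not deviate together (correlations from -0.03 to 0.07 over 18 pairs), and with a replicate block 2, 7 and 7 members were called against siControl and 6 in place of 5 in siSLC25A1 against siACO1, where the gain was ACACA; of the 8 genes other than ACACA and ELOVL6 it called 2, 6, 6 and 4, as without the block. With the block 3270, 6038 and 6093 of all 16197 tested genes were called against siControl, and 6893 in siSLC25A1 against siACO1. Without it these were 3173, 5944, 6008 and 6823. ELOVL6 and ELOVL7 gave no value with at least 10 counts in every library. ELOVL6 had 2 to 31 and ELOVL7 6 to 66 counts per library, which limits their precision.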
